A study of Mus musculus with 4 samples.

Results

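The genes described here are 5 transcription factor genes of the primitive endoderm (Gata4, Gata6, Sox17, Sox7 and Foxa2), Pdgfra and Dab2, which encode a receptor and an endocytic adaptor of that lineage, and Lama1, Col4a1 and Col4a2, which encode chains of the basement membrane. They were chosen by gene symbol and are 10 of the 55335 genes in the deposited tables. RNA-seq was performed on AB2.2, a mouse embryonic stem cell (ESC) line, in 2 control libraries and 2 libraries of cells that received 50 mM lactate for 24 h, and the question here was whether lactate supplementation changed the RNA of these genes. Control and lactate cells alike grew on mouse embryonic fibroblast (MEF) feeders in ES cell medium that held leukemia inhibitory factor at 1000 U/ml, fetal bovine serum at 15%, the GSK3 inhibitor CHIR99021 at 3 μM and the MEK inhibitor PD0325901 at 1 μM. Whether feeders were removed before the RNA was extracted is not given in the sources used here. AB2.2 is 1 cell line, and the labels do not say that the libraries of a group came from separate cultures, so p-values measure the spread between these libraries, which may be technical.

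The primitive endoderm is the layer that separates from the pluripotent epiblast in the inner cell mass of the blastocyst. Cells of the inner cell mass that receive strong FGF signals through the receptor and MEK keep Gata6 and then turn on Sox17, Gata4 and Sox7. Nanog is kept in the epiblast. Inhibition of MEK, as in this medium, holds ESCs in the epiblast state. The endoderm lays down a basement membrane, a sheet built of laminin trimers and type IV collagen, and its parietal branch makes large amounts of both. ESC cultures can hold a minority of cells that express endoderm genes, and in bulk RNA fewer cells of a type and less RNA per cell cannot be told apart.

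Reads on genes numbered between 18067562 and 19077885 per library, and the deposited totals of the libraries overlapped between the groups. The ESC markers were abundant in every library, and the summed FPKM of 9 such genes was between 4160 and 5946 in control and between 4603 and 7646 in lactate libraries. FPKM is the read count scaled by the length of the transcript and the size of the library, and levels of different genes are compared here only in this unit. The 20 feeder fibroblast markers summed to 519 and 703 FPKM in control replicates 1 and 2 and to 490 and 571 in lactate replicates 1 and 2, and none of them was at 0 reads in all libraries. The share of mitochondrial genes in the counts was 5.48% and 5.72% in the replicates numbered 1, and 2.43% and 2.82% in those numbered 2.

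None of the 10 genes was called as changed by lactate, where a call needs more than a 2-fold change and p under 0.05 after adjustment (edgeR's quasi-likelihood test, Benjamini-Hochberg adjustment over 18661 genes). Among all genes tested, 0.552% were called higher and 0.348% lower. The levels of Gata4, Pdgfra and Lama1 were nonetheless above the control range in both lactate libraries, with ratios of the group means of 1.59, 1.99 and 1.62, while those of Col4a1 and Col4a2 were 1.04 and 0.999. At an unadjusted p-value under 0.05, these 3 genes were higher and no member was lower, against 11.7% and 11.4% of all genes tested. Sox17 and Foxa2 had too few reads to be tested. Sox7 passed the filter on low counts only through the lactate libraries, and of the other 7 members tested, 5 had both lactate libraries above both control libraries in CPM, the read count scaled to the size of the library after TMM normalization, and none had both below. Over all genes tested these shares were 27.0% and 25.9%. The median log2 fold change of these 7 members was 0.46, and that of all genes tested was 0.01.

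**Figure D1:**
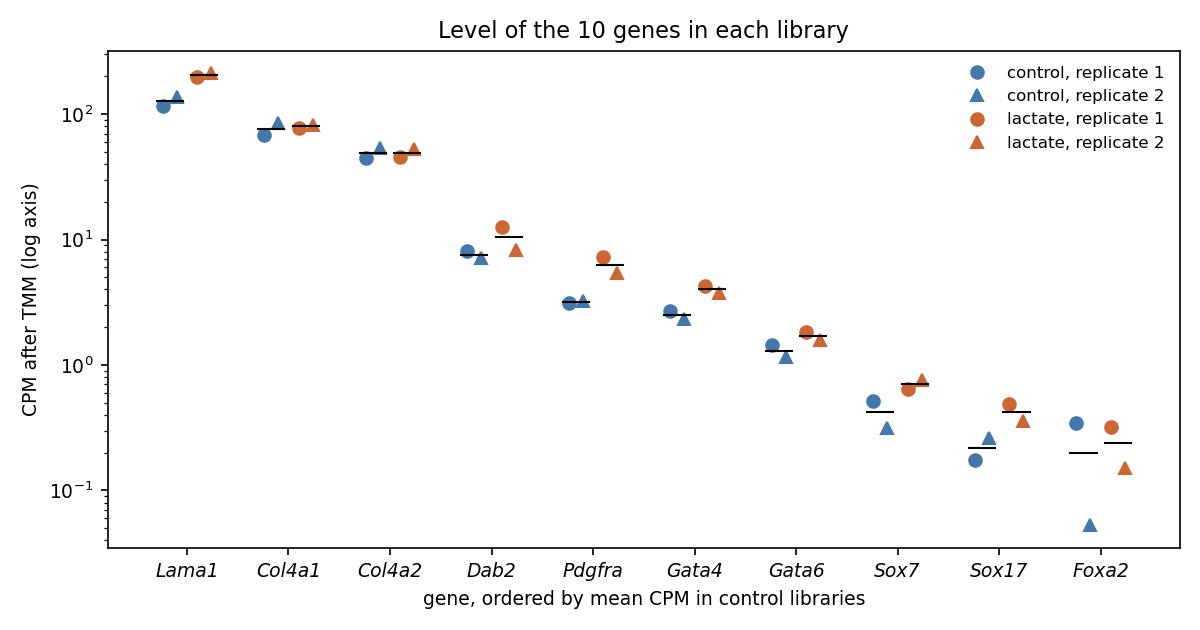
Level (CPM, log axis) of the 10 genes in each library. Circles are replicates 1, triangles are replicates 2, blue is control, orange is lactate, and the short lines are group means. Both lactate points of Lama1, 197.5 and 211.8, lie above both control points, 115.9 and 137.1, while the points of Col4a1 and Col4a2 overlap between the groups.

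Gata6 and Gata4 encode zinc finger factors that bind the GATA motif. Gata6 is the first of the lineage factors to act and is sufficient to turn ESCs into endoderm, and Gata4 follows it. Gata6 (chromosome 18, plus strand) had 25 and 22 reads in control replicates 1 and 2 and 34 and 31 reads in lactate replicates 1 and 2, which corresponded to 1.45, 1.16, 1.83 and 1.57 CPM. The lactate libraries were the higher ones without overlap, but the gap of the nearest libraries was smaller than the difference between the control libraries. Its mean was 1.30 ± 0.202 CPM in control and 1.70 ± 0.182 CPM in lactate libraries (SD, n = 2 each), and the log2 fold change was 0.39 with a standard error (SE) of 0.29 (adjusted p = 0.470, edgeR's quasi-likelihood test).

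Gata4 (chromosome 14, 63198922 to 63271692, minus strand, GRCm38) had 47 and 44 reads in control replicates 1 and 2, and 79 and 74 reads in lactate replicates 1 and 2. After scaling, it was at 2.72, 2.32, 4.25 and 3.75 CPM, so that the groups were separated by more than the difference between libraries of either group. The mean was 2.52 ± 0.282 CPM in control and 4.0 ± 0.353 CPM in lactate libraries (SD, n = 2 each). It had a log2 fold change of 0.67 with SE 0.23 and a 95% interval from 0.10 to 1.23, and it did not pass the adjustment over all genes (adjusted p = 0.163, edgeR's quasi-likelihood test). The ratio of Gata4 to Gata6 in FPKM was 2.12 and 2.09 in control and 2.64 and 2.37 in lactate libraries.

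Sox17 and Sox7 encode HMG box factors of the same SOX subgroup. Sox17 sustains the endoderm programme and Sox7 marks the parietal branch, and both are also genes of the vascular endothelium. Sox17 (chromosome 1, 4490931 to 4497354, minus strand) had 3 and 5 reads in control replicates 1 and 2 and 9 and 7 reads in lactate replicates 1 and 2. The lactate libraries had more reads, but they held only 16 in all against 8, and the ratio after scaling was 1.89 with an exact 95% interval from 0.764 to 5.11 that covers counting error only. These few reads therefore did not show whether Sox17 differed between the groups. Sox7 (chromosome 14, 63943673 to 63950732, plus strand) had 9 and 6 reads in control and 12 and 15 reads in lactate replicates 1 and 2, or 0.520, 0.316, 0.646 and 0.760 CPM. Its log2 fold change was 0.75 with a 95% interval from -0.26 to 1.77 (adjusted p = 0.336, edgeR's quasi-likelihood test), and the ratio of its summed reads was 1.70 with a counting interval from 0.875 to 3.45.

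Foxa2 encodes a forkhead factor of the visceral endoderm and, later, of the definitive endoderm, the node and the floor plate. Foxa2 (chromosome 2, 148042877 to 148046969, minus strand) had 6 and 1 reads in control and 6 and 3 reads in lactate replicates 1 and 2. The replicates differed within each group by more than the groups did, and replicate 1 was the higher library in both. The ratio of lactate to control reads was 1.22 with an exact 95% interval from 0.403 to 3.85 for counting error. The 5 transcription factor genes together summed to 2.42 and 1.53 FPKM in control replicates 1 and 2 and to 3.13 and 2.87 FPKM in lactate replicates 1 and 2, and 4 of the 5 were under 1 FPKM in every library.

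Pdgfra encodes a receptor tyrosine kinase for platelet-derived growth factors. It is an early surface marker of the primitive endoderm and is also expressed by fibroblasts, so its reads can come from either. Pdgfra (chromosome 5, 75152292 to 75198215, plus strand) had 54 and 61 reads in control replicates 1 and 2 and 135 and 106 reads in lactate replicates 1 and 2. Its level was 3.12 and 3.21 CPM in control and 7.26 and 5.37 CPM in lactate libraries. The control libraries were nearly equal, the lactate libraries were apart from each other, and the groups did not overlap. The mean was 3.17 ± 0.0654 CPM in control and 6.32 ± 1.34 CPM in lactate libraries (SD, n = 2 each). Its log2 fold change, 0.99 with SE 0.24, was the highest of the members tested, with a 95% interval from 0.41 to 1.57 and an adjusted p of 0.0879 by edgeR's quasi-likelihood test. Without lactate replicate 2, with the lone lactate library taken to vary like the control libraries, it was 1.19. Over 15 alternatives the adjusted p-value was between 0.000179, with a replicate block in edgeR's quasi-likelihood test, and 0.312, with limma on log2(FPKM + 0.1). With the replicate block, 8297 of the 18661 genes tested had an adjusted p-value under 0.05.

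The values of feeder genes are given beside Pdgfra because fibroblasts also transcribe it. None of the 19 feeder markers tested was called. Of the 18 that passed the filter on low counts in both groups, 7 had a log2 fold change above 0 and 11 below, with a median of -0.12, and at an unadjusted p-value under 0.05 1 was higher and 4 lower (11.7% and 11.4% over all genes). Both lactate libraries were above both control libraries for 2 of the 18 and below for 6, against 27.0% and 25.9% of all genes. One of the 2 was Pdgfrb, the gene of the other PDGF receptor, at 23.3 and 24.9 CPM in control and 37.6 and 33.5 CPM in lactate libraries, with a log2 fold change of 0.56 (adjusted p = 0.105, edgeR's quasi-likelihood test), and it is named here after its values were seen. The ratio of Pdgfra to Pdgfrb in FPKM was 0.122 and 0.133 in control and 0.179 and 0.159 in lactate libraries. The most abundant feeder markers were Vim, which encodes an intermediate filament protein, the smooth muscle actin gene Acta2, Tagln, which encodes an actin binding protein, and Col1a1, which encodes a chain of type I collagen, with log2 fold changes of -0.75, -0.06, 0.18 and -0.19 (adjusted p of 0.118, 0.851, 0.715 and 0.668, edgeR's quasi-likelihood test). The part of feeder RNA in the Pdgfra values was not tested.

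Dab2 encodes a clathrin adaptor that carries megalin and its ligands into the cell and that orders the endoderm into an epithelium. Dab2 (chromosome 15, 6299788 to 6440712, plus strand) had 139 and 135 reads in control replicates 1 and 2 and 234 and 162 reads in lactate replicates 1 and 2, or 8.04, 7.12, 12.6 and 8.21 CPM. Lactate replicate 1 stood above the other 3 libraries, and lactate replicate 2 was just above control replicate 1. Its mean was 7.58 ± 0.652 CPM in control and 10.4 ± 3.09 CPM in lactate libraries (SD, n = 2 each), and the log2 fold change was 0.46 with SE 0.25 (adjusted p = 0.334, edgeR's quasi-likelihood test). Without lactate replicate 1 the log2 fold change was 0.09. In FPKM the order of the lactate libraries turned around, with 2.16 and 2.11 in control and 3.25 and 4.48 in lactate replicates 1 and 2. The mean transcript length that RSEM assigned to Dab2 was 3676, 3549, 4007 and 2159 bases in these libraries, so that lactate replicate 2 had the shortest.

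RefSeq start sites with a promoter window were at hand for 5 of the 10 genes, in 8 windows of 300 bases on GRCm38.p6 that run from 250 bases before the start site to 50 bases after it. The windows of Pdgfra and Dab2 are shown because both genes were higher in both lactate libraries. Capitals mark matches, on either strand, to the GATA forms AGATAA and TGATAA and AGATAG and TGATAG, the SOX cores ACAATG and ACAAAG, the FOX cores TGTTTAC and TGTTTGC and TATTTAC and TATTTGC, the GC box GGGCGG and the CCAAT box. The window of Pdgfra is chr5:75152001-75152300, plus strand. The first of the windows of Dab2 is chr15:6299539-6299838, plus strand.
Pdgfra: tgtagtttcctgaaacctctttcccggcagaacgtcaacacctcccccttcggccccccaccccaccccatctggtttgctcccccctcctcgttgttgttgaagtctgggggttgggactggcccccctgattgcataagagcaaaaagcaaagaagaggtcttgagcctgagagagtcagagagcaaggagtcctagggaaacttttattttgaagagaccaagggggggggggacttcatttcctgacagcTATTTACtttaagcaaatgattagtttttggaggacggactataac
Dab2: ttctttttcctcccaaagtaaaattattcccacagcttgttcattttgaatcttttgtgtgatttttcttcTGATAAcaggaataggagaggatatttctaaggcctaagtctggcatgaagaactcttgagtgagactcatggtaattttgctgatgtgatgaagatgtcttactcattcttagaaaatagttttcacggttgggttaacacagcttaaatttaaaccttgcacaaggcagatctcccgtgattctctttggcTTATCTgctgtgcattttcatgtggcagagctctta
The Pdgfra window held 1 match, to the FOX core, at positions 5 to 11 after the start site. The Dab2 window held 2 GATA forms, at positions -179 to -174 and 15 to 20, and the other RefSeq window of Dab2 held none of the motifs. A GATA form was found in 29.76% of 32851 RefSeq windows of the same length, a FOX core in 13.53% and a SOX core in 28.6%, so such matches are common, and they are a description of the letters and not of binding.

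**Figure D2:**
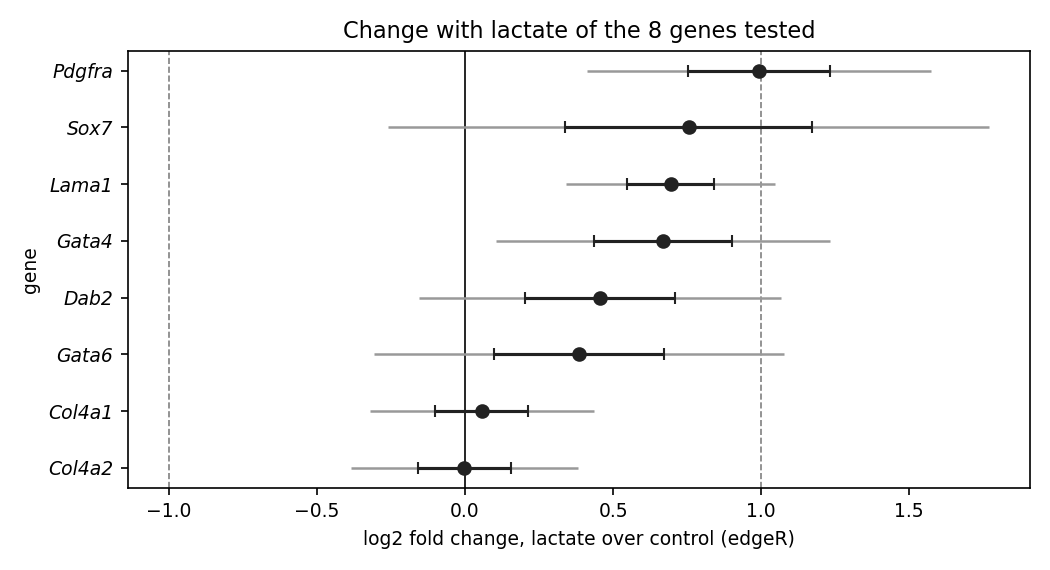
The log2 fold change of lactate over control for the 8 genes tested, from edgeR's quasi-likelihood test. Black bars are standard errors, grey bars are 95% intervals, and dashed lines mark a 2-fold change. The intervals of Pdgfra, Lama1 and Gata4 lie above 0, and those of Col4a1 and Col4a2, from -0.32 to 0.43 and from -0.38 to 0.38, contain it.

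Lama1 encodes the alpha 1 chain of laminin-111, the trimer of alpha 1, beta 1 and gamma 1 chains that is made by the early embryo and in quantity by the parietal endoderm. It is on chromosome 17 (67697259 to 67822647, plus strand) and was the member with the most reads. Lama1 had 2005 and 2601 reads in control replicates 1 and 2 and 3672 and 4179 reads in lactate replicates 1 and 2. Its level was 115.9 and 137.1 CPM in control and 197.5 and 211.8 CPM in lactate libraries, so that the lowest lactate library was well above the highest control library. The mean was 126.5 ± 15.0 CPM in control and 204.7 ± 10.1 CPM in lactate libraries (SD, n = 2 each). The log2 fold change was 0.69 with SE 0.15 and a 95% interval from 0.34 to 1.05, and the adjusted p was 0.0684 by edgeR's quasi-likelihood test. The log2 fold change was between 0.56 and 0.88 over 15 alternatives, and in none of them was Lama1 past the 2-fold limit. Its adjusted p-value was 2.94e-08 with a replicate block in edgeR's quasi-likelihood test, where 8297 of the 18661 genes tested were under 0.05. It was 0.249 with limma on log2(FPKM + 1).

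The chains that assemble with Lama1 were measured beside it. Lamb1, the gene of the beta 1 chain, was at 67.4 and 76.5 CPM in control and 52.7 and 58.1 CPM in lactate libraries, which were the lower ones without overlap (log2 fold change -0.38, SE 0.14, adjusted p = 0.179, edgeR's quasi-likelihood test). Lamc1, the gene of the gamma 1 chain, was at 882 and 908 CPM in control and 873 and 881 CPM in lactate libraries, with a log2 fold change of -0.03 and a 95% interval from -0.37 to 0.31. The ratio of Lama1 to Lamb1 in FPKM was 1.30 in control replicate 1 and 1.44 in control replicate 2, and it was 3.28 in lactate replicate 1 and 2.78 in lactate replicate 2. Its mean was 1.37 ± 0.102 in control and 3.03 ± 0.353 in lactate libraries (SD, n = 2 each), a gap wider than the spread within either group, and raw counts gave ratios of 1.72, 1.79, 3.75 and 3.64. The ratio of Lama1 to Lamc1 in FPKM was 0.108 and 0.160 in control and 0.233 and 0.253 in lactate libraries, so Lamc1 had the higher RNA level in every library.

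Among the 5 laminin alpha chain genes, Lama5 had the highest level in each library, at 64.5 and 79.9 FPKM in control and 75.5 and 68.0 FPKM in lactate libraries. Lama1 made up 18.9% and 20.3% of the summed FPKM of Lama1 to Lama5 in control replicates 1 and 2, and its share was 29.1% and 33.0% in lactate replicates 1 and 2. The means were 19.6% ± 0.975 and 31.1% ± 2.76 (SD, n = 2 each), and the smallest p-value that an exact two-sided permutation test can give with 2 libraries against 2 is 0.333. Lama2, Lama3 and Lama4 were under 2 FPKM in all 4 libraries. RSEM assigned Lama5 a mean length of 6253 and 6714 bases in control and 5448 and 6974 bases in lactate replicates 1 and 2. In raw counts the ratio of Lama1 to Lama5 was 0.265 and 0.247 in control and 0.486 and 0.457 in lactate replicates 1 and 2. The groups were apart in counts too, but replicate 1 was the higher one in each group, unlike in the FPKM shares.

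**Figure D3:**
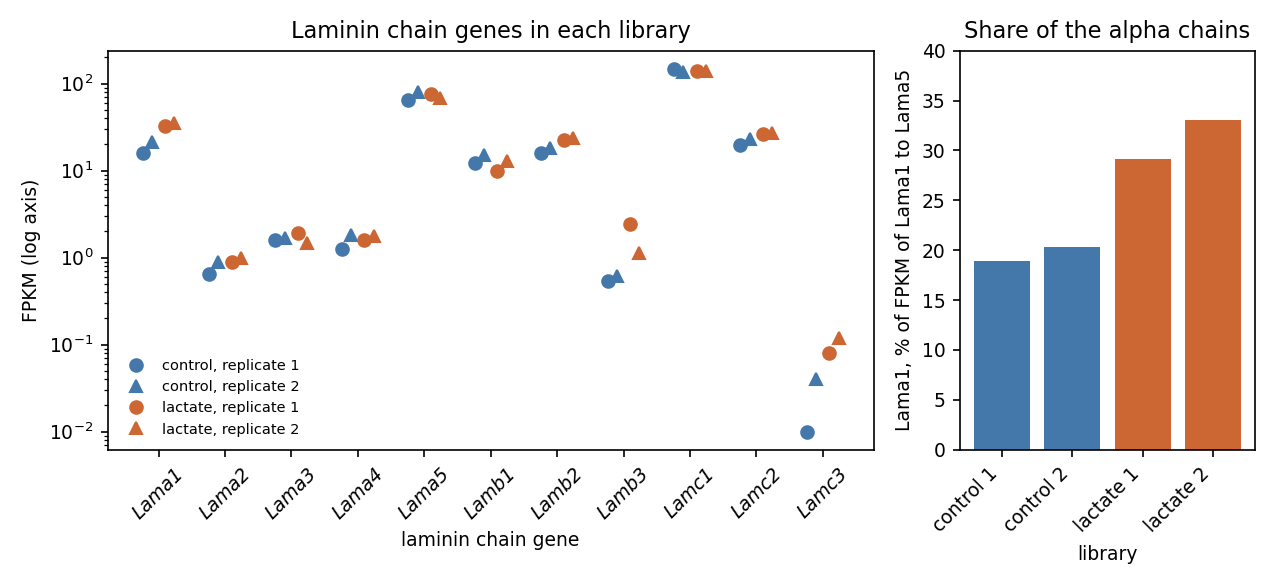
FPKM of the 11 laminin chain genes in each library (left, log axis, circles for replicates 1 and triangles for replicates 2) and the share of Lama1 in the summed FPKM of Lama1 to Lama5 (right, 1 bar per library). Blue is control and orange is lactate, and the share is 18.9% and 20.3% in control and 29.1% and 33.0% in lactate libraries.

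Col4a1 and Col4a2 encode the alpha 1 and alpha 2 chains of type IV collagen, which assemble as 2 alpha 1 chains and 1 alpha 2 chain. The genes lie head to head on chromosome 8, Col4a1 from 11198423 to 11312826 on the minus strand and Col4a2 from 11312805 to 11449287 on the plus strand. Their first exons share 22 bases in the annotation, and whether reads were counted by strand is not given in the sources used here. Col4a1 had 1176 and 1627 reads in control replicates 1 and 2 and 1442 and 1624 reads in lactate replicates 1 and 2, or 68.0, 85.7, 77.6 and 82.3 CPM. Col4a2 had 769 and 1025 reads in control and 853 and 1035 reads in lactate replicates 1 and 2, or 44.5, 54.0, 45.9 and 52.5 CPM. For both genes the control libraries enclosed the lactate libraries, and replicate 2 was the higher library in both groups. The means were 76.9 ± 12.6 and 79.9 ± 3.36 CPM for Col4a1 and 49.2 ± 6.76 and 49.2 ± 4.65 CPM for Col4a2 in control and lactate libraries (SD, n = 2 each).

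The log2 fold change of Col4a1 was 0.06 with a 95% interval from -0.32 to 0.43, and that of Col4a2 was -0.0022 with an interval from -0.38 to 0.38, so changes of 2-fold lie outside both intervals. Their adjusted p-values were 0.874 and 0.995 by edgeR's quasi-likelihood test. The ratio of Col4a1 to Col4a2 reads was 1.53 and 1.59 in control and 1.69 and 1.57 in lactate libraries. In FPKM it was 2.05 and 1.62 in control and 2.19 and 1.49 in lactate replicates 1 and 2, and RSEM assigned Col4a1 a mean length of 4610 and 5985 bases in control and 4700 and 6108 bases in lactate replicates 1 and 2, against 6450 bases for Col4a2 in each library. Fibroblasts make type IV collagen as well, and the feeder list was the higher in replicate 2 in both groups, with a median log2 ratio of replicate 2 over replicate 1 of 0.36 in control and 0.21 in lactate libraries. The part of feeder RNA in these values was not tested. The antisense gene Gm15419, which shares 43 exonic bases with Col4a2, had between 25 and 38 reads per library.

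The promoter windows of the collagen genes are shown because the pair is read from opposite strands of the same stretch. The RefSeq start sites, 11312826 for Col4a1 and 11312805 for Col4a2, span 22 bases, and the windows share 78 bases. The Col4a1 window is chr8:11312777-11313076, minus strand, and the Col4a2 window is chr8:11312555-11312854, plus strand, both on GRCm38.p6. Capitals mark the same motifs as above.
Col4a1: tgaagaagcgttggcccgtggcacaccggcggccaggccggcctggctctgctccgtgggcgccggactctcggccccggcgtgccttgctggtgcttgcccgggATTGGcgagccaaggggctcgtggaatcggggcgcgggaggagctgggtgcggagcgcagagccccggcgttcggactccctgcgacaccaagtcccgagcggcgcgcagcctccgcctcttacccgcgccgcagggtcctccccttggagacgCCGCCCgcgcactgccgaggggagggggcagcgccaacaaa
Col4a2: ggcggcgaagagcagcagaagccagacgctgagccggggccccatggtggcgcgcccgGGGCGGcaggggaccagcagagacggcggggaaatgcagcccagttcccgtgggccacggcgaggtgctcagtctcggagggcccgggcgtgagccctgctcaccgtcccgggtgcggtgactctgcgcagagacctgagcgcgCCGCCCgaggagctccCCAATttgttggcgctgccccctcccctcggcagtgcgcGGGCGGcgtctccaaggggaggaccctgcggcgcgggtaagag
The Col4a1 window held a GC box at positions 10 to 15 and a CCAAT box at -145 to -141. The Col4a2 window held GC boxes at -192 to -187, -48 to -43 and 8 to 13 and a CCAAT box at -32 to -28, and the last of these GC boxes and the one of Col4a1 are the same bases read from opposite strands. No GATA form, SOX core or FOX core was in either window, which says only that these letters are not there. The GC content was 74.0% and 73.67%, against a median of 52.67% over all RefSeq windows, of which 35.66% held a GC box and 37.41% a CCAAT box.

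In the control libraries the order of the levels in FPKM was Lama1, Col4a1, Col4a2, Dab2, Gata4, Pdgfra and Gata6, from 18.7 ± 3.96 for Lama1 down to 0.425 ± 0.106 for Gata6 (SD, n = 2), and each of these genes was above the next in both libraries. Below Gata6, the ranges of Foxa2, Sox17 and Sox7 overlapped with those of their neighbours. The lactate libraries had the same order down to Gata6, from 34.2 ± 2.0 for Lama1 to 0.615 ± 0.00707 for Gata6, followed by Sox17, Sox7 and Foxa2, of which Sox7 and Foxa2 overlapped. The 3 basement membrane genes thus stood above the transcription factor genes in every library.

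Libraries of a group may hold different shares of endoderm-like cells, and the difference between them was compared with that of all genes. The log2 ratio of replicate 2 over replicate 1 in control libraries was below 0 for Gata6 (-0.32), Gata4 (-0.23), Sox7 (-0.72) and Dab2 (-0.18), near 0 for Pdgfra (0.04) and above 0 for Lama1 (0.24), Col4a1 (0.33) and Col4a2 (0.28). In lactate libraries it was -0.22 for Gata6, -0.18 for Gata4, -0.43 for Pdgfra and -0.62 for Dab2, and 0.24 for Sox7, 0.10 for Lama1, 0.09 for Col4a1 and 0.19 for Col4a2. The members thus did not all differ the same way between libraries of a group, and in both groups the GATA genes and Dab2 were higher in replicate 1 and the basement membrane genes in replicate 2. The reads of replicates 1 and 2 were close for Gata6 (25 and 22 in control, 34 and 31 in lactate) and Gata4 (47 and 44, 79 and 74). They were also close for Dab2 in control (139 and 135). Counting error was not set beside these differences. All of these ratios lay within the central 95% of the genes tested, which ran from -0.89 to 0.91 in control and from -0.84 to 1.01 in lactate libraries. This range takes in genes of few and of many reads alike, so it cannot show whether the libraries held different shares of endoderm-like cells. The median absolute log2 ratio over all genes was 0.24 in control and 0.25 in lactate libraries. The median over the members tested was -0.07 in control and -0.05 in lactate libraries.

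**Figure D4:**
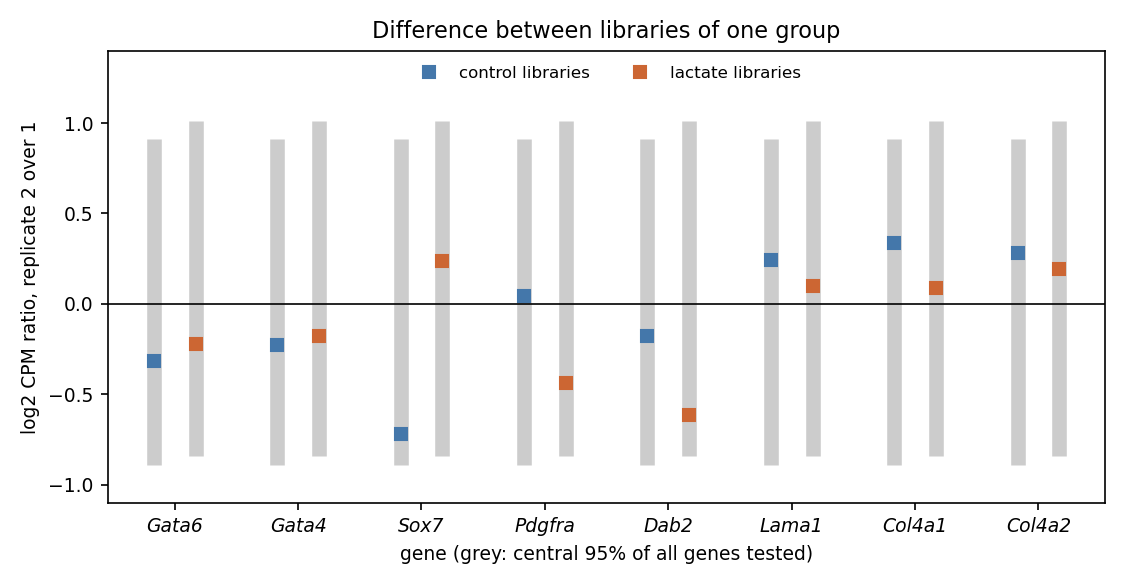
The log2 ratio of CPM in replicate 2 over replicate 1 for the 8 genes tested, in control (blue) and lactate (orange) libraries. Grey bars span the central 95% of all genes tested, from -0.89 to 0.91 in control and from -0.84 to 1.01 in lactate libraries, and every point lies within them.

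Other genes of the basement membrane were described by a list of 22 laminin, nidogen, collagen and proteoglycan genes, of which 19 were tested and none was called. Of the 18 that passed the filter on low counts in both groups, 12 had a log2 fold change above 0 and 6 below, with a median of 0.07, and 1 was higher and 3 lower at an unadjusted p-value under 0.05, against 11.7% and 11.4% of all genes. The most abundant partner was Fn1, the gene of fibronectin, at 2390 and 2348 CPM in control and 3322 and 2847 CPM in lactate libraries, which did not overlap (log2 fold change 0.38, SE 0.17, adjusted p = 0.236, edgeR's quasi-likelihood test). Sparc, a collagen binding protein gene that parietal endoderm expresses strongly, had a log2 fold change of -0.35, and Nid2, the gene of a nidogen that joins laminin to type IV collagen, one of -0.16 (adjusted p of 0.187 and 0.536, edgeR's quasi-likelihood test).

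Lamb3 was the 1 gene of these 18 that was higher at an unadjusted p-value under 0.05, and the 3 lower ones were Nid1, Lamb1 and Sparc. Lamb3, Nid1 and Col15a1 are named after their values were seen. Nid1, another nidogen gene, was at 415 and 398 CPM in control and 323 and 283 CPM in lactate libraries (log2 fold change -0.43, adjusted p = 0.151, edgeR's quasi-likelihood test). Lamb3, the gene of the beta 3 chain of epithelial laminin-332, had 35 and 43 reads in control and 84 and 88 reads in lactate replicates 1 and 2, with a log2 fold change of 1.06 (adjusted p = 0.0688, edgeR's quasi-likelihood test). Col15a1, a basement membrane zone collagen gene, had 6 and 4 reads in control and 17 and 19 reads in lactate replicates 1 and 2, and like Sox7 it passed the filter only through the lactate libraries. Among 15 genes for collagen and laminin processing and for matrix receptors, all tested, none was called. Of the 14 that passed in both groups, 4 had a log2 fold change above 0 and 10 below. At an unadjusted p-value under 0.05, 0 were higher and 4 lower, against 11.7% and 11.4% of all genes. The 4 lower genes, named after their values were seen, were P4ha1, P4ha2, Itgb4 and Ddr1, with log2 fold changes of -0.42, -0.41, -0.51 and -0.69. The most abundant of the 15 genes were P4hb, a subunit gene of prolyl 4-hydroxylase, at -0.16, the laminin receptor genes Itgb1 at 0.14 and Itga6 at 0.23, and the dystroglycan gene Dag1 at -0.15 on the log2 fold change scale.

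Of 29 other genes of the primitive, parietal and visceral endoderm, 25 were tested, and none was called. Foxa1, Amn and Tmprss2 passed the filter on low counts only through the lactate libraries, and Aqp8 passed in 1 library of each group. Of the other 21, 14 had a log2 fold change above 0 and 7 below, with a median of 0.30. At an unadjusted p-value under 0.05, 5 of the 21 were higher and 3 lower, against 11.7% and 11.4% of all genes. Both lactate libraries were above both control libraries in 9 of the 21 and below in 4, against 27.0% and 25.9% of all genes. The most abundant were Apoe, the gene of a lipoprotein of visceral endoderm that ESCs express too, with a log2 fold change of 0.23, and Rhox5, a homeobox gene, which was at 45.4 and 55.8 CPM in control and 25.8 and 30.1 CPM in lactate libraries (log2 fold change -0.86, adjusted p = 0.0637, edgeR's quasi-likelihood test). F3, the gene of tissue factor, had a log2 fold change of 0.30, and Krt8, a keratin gene of simple epithelia and of the endoderm, had 211 and 283 reads in control and 92 and 153 reads in lactate replicates 1 and 2, with a log2 fold change of -1.09 (adjusted p = 0.0861, edgeR's quasi-likelihood test).

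The 5 higher genes were Hnf4a, Lrp2, Apob, Fst and Soat2 and the 3 lower ones Rhox5, Krt8 and Krt19, and those not named above are named after their values were seen. Apob, Fst and Soat2 had log2 fold changes of 0.72, 0.91 and 0.83. Krt19, another keratin gene, had 119 and 126 reads in control and 64 and 72 reads in lactate replicates 1 and 2 (log2 fold change -0.93, adjusted p = 0.0695, edgeR's quasi-likelihood test). Hnf4a, a nuclear receptor gene of the visceral endoderm, had 115 and 134 reads in control and 239 and 195 reads in lactate replicates 1 and 2 (log2 fold change 0.73, adjusted p = 0.118, edgeR's quasi-likelihood test). Lrp2, the gene of megalin, a cargo receptor that Dab2 binds, had 708 and 840 reads in control and 1147 and 1135 reads in lactate replicates 1 and 2 (log2 fold change 0.48, adjusted p = 0.110, edgeR's quasi-likelihood test). Tmprss2, a membrane protease gene that passed the filter only through the lactate libraries, had 1 and 2 reads in control and 13 reads in each lactate library. Some genes of the list were at the floor, while Apob had between 23 and 52 reads per library. Apoa4 had no read in any library, and Afp, Ttr and Apoa1 had at most 2 reads per library.

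**Figure D5:**
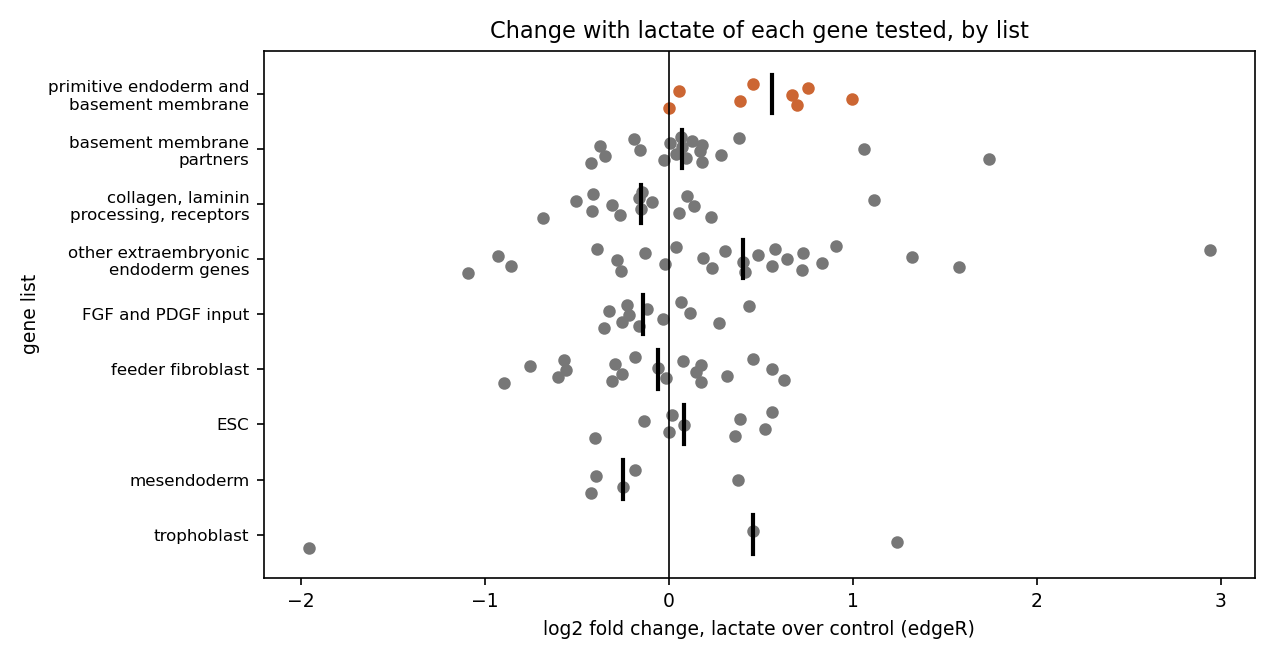
The log2 fold change of lactate over control for each gene tested, by gene list, from edgeR's quasi-likelihood test. Each point is 1 gene, orange for the primitive endoderm and basement membrane genes, and black lines are medians over all genes tested of a list, those that passed the filter on low counts in 1 group included, at 0.56 for these genes, 0.40 for the other extraembryonic endoderm genes, 0.07 for the basement membrane partners and -0.06 for the feeder fibroblast markers.

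The genes of the FGF and PDGF input were measured because this pathway decides between epiblast and primitive endoderm. All 12 genes of the list were tested, 4 had a log2 fold change above 0 and 8 below, and none was called. At an unadjusted p-value under 0.05 1 was higher and 2 lower, against 11.7% and 11.4% of all genes. Fgf4, the ligand that the epiblast secretes, was at 215 and 209 CPM in control and 169 and 187 CPM in lactate libraries (log2 fold change -0.25, adjusted p = 0.310, edgeR's quasi-likelihood test). The MEK genes Map2k1 and Map2k2, whose products are the target of PD0325901, had log2 fold changes of -0.22 and 0.06. The 1 higher gene was Fgfr2, the receptor that the primitive endoderm keeps, with 307 and 352 reads in control and 476 and 465 reads in lactate replicates 1 and 2 (log2 fold change 0.44, adjusted p = 0.163, edgeR's quasi-likelihood test). The 2 lower genes were Fgfr1 and Grb2, with log2 fold changes of -0.35 and -0.33 (adjusted p of 0.175 and 0.207, edgeR's quasi-likelihood test). Fgfr2, Fgfr1 and Grb2 are named after their values were seen. Both lactate libraries were above both control libraries for 3 of the 12 genes and below for 6, against 27.0% and 25.9% of all genes.

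Nanog, the epiblast factor that opposes Gata6, was at 956 and 753 CPM in control and 971 and 836 CPM in lactate libraries, with a log2 fold change of 0.08 and a 95% interval from -0.36 to 0.52. Of the 9 ESC markers, 6 had a log2 fold change above 0 and 3 below, with a median of 0.08, and none was called. At an unadjusted p-value under 0.05 3 were higher and 0 lower, against 11.7% and 11.4% of all genes. Pou5f1, which encodes the pluripotency factor Oct4, had a log2 fold change of -0.40, Zfp42, the gene of Rex1, one of 0.52, and Dppa5a, an RNA binding protein gene of pluripotent cells, one of 0.36 with a difference between replicates in both groups (542 and 982 CPM in control, 564 and 1388 CPM in lactate libraries). The ESC markers Nanog and Pou5f1 overlapped between the groups. The 3 higher markers were Zfp42, Sox2 and Klf4, the latter with log2 fold changes of 0.56 for Sox2 and 0.39 for Klf4, both named after their values were seen. Both lactate libraries were above both control libraries for 3 of the 9 and below for 1, against 27.0% and 25.9% of all genes.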

How the data were processed

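RNA was sequenced from 2 control and 2 lactate libraries, grouped by the treatment in the labels. The authors trimmed reads with cutadapt 1.16, mapped them to mm10 and counted them in exons of GENCODE M23 with STAR. They deposited raw counts for 55335 genes and for 1153 transposable element families. The counter of the elements, and any use of strand, are not given in the sources used here. The elements, 7.36% to 9.41% of the counts of a library, were left out. For each library the authors also deposited the expected counts, TPM and FPKM of RSEM, with its transcript lengths. TPM was not used.

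Libraries of a group differed by more than sampling noise (chi-square of 22.3 and 21.6 per degree of freedom), so each was kept as a replicate. Genes were matched by identifier. edgeR 4.0.16 (R 4.3.3) filtered genes with filterByExpr at its minimum of 10 counts, scaled libraries by TMM and compared lactate with control by its quasi-likelihood test in the legacy form, without a replicate term, with Benjamini-Hochberg adjustment over 18661 genes. This was tested on simulated data. Standard errors are the log2 fold change divided by the square root of F. Intervals for genes with few reads are exact binomial, conditional on their sum. Levels are CPM after TMM, with SD over 2 libraries. Alternatives were DESeq2 1.42.0, limma 3.58.1 on log2(FPKM + 1) and log2(FPKM + 0.1), expected counts rounded to whole numbers, other scalings and filters, a replicate block and each library left out.

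The 10 genes and the 8 comparison lists were chosen with earlier results of these data known. Of each list the 4 genes with the highest mean FPKM and any called gene were named, with Lamb1 and Lamc1, except that 1 gene is not reported here, and further names are said to be chosen after their values were seen. Positions are from GENCODE M21 on GRCm38, in which 54587 of the gene identifiers have the same version, and promoter windows and start sites are from RefSeq (GRCm38.p6).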

Additional observations from a re-analysis of the deposited data

How the results depend on the processing

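The log2 fold changes of Lama1, Pdgfra, Gata4, Gata6 and Dab2 were above 0 under all 15 alternatives. In that order they were 0.56 to 0.88, 0.47 to 1.19, 0.43 to 0.77, 0.18 to 0.53 and 0.09 to 0.81. That of Sox7, which passed the main filter only through the lactate libraries, was above 0 under the 14 in which it had a value (0.14 to 1.12). Those of Col4a1 and Col4a2, from -0.12 to 0.23 and from -0.15 to 0.14, took both signs without a call. With each library left out in turn, the median of the members, Sox7 included, ranged from 0.40 to 0.63, and Pdgfra without lactate replicate 2 was at 1.19. In the main fit the median with Sox7 included was 0.56. The median was 0.19 with limma on log2(FPKM + 1), where Sox17 and Foxa2 had values too, so it covers other genes than the main fit. Scaled by totals alone, the median log2 ratios of replicate 2 over 1 were -0.0116 in control and 0.0073 in lactate libraries.

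The counts of genes called higher and lower, 103 and 65, moved to 190 and 168 with DESeq2, 108 and 40 with library totals alone, 482 and 325 without a filter on low counts, and 27 and 17 with RSEM expected counts. limma called 0 and 0 genes on either FPKM scale, where 2914 and 2954 genes were at an unadjusted p-value under 0.05. With each library left out, 45 to 502 genes were higher and 39 to 367 lower. Without control replicate 1 they were fewest, and without lactate replicate 2 most.

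The labels do not pair same-numbered libraries. Their shares of mitochondrial counts were alike, at 5.48% and 5.72% in replicates 1 and 2.43% and 2.82% in replicates 2 of control and lactate. With a replicate block, 761 genes were called higher and 395 lower, and no member was called. Gata4, Dab2, Pdgfra and Lama1 had adjusted p-values under 0.05, as did 8297 of the 18661 genes tested. The differences between replicates correlated between the groups at 0.638 over 18661 genes, but with 2 pairs this is no check of pairing. In the main fit 19, 15, 25, 12, 19, 9, 5 and 3 genes of the 8 comparison lists were tested. Of the list genes, 8 were called with the replicate block, 6 without a filter and 2, Ascl2 and Krt8, with DESeq2. Over all genes, those called higher and lower were 761 and 395 of 18661 with the block. They were 482 and 325 of 32923 without a filter. With DESeq2 they were 190 and 168 of the 32923 genes that had a fold change. Some of those, such as Sox7, had no adjusted p-value and could not be called. The cause of the differences between settings was not tested. Depth limited Sox17, Sox7 and Foxa2, each with at most 15 reads per library.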

Other observations

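Trophoblast and mesendoderm markers were also measured, since their lineages border the endoderm. Of 7 trophoblast genes, 3 were tested and none was called, with 2 log2 fold changes above 0 and 1 below and a median of 0.46. At an unadjusted p-value under 0.05, 1 was higher and 1 lower, against 11.7% and 11.4% of all genes. Ascl2, a factor gene of trophoblast progenitors, had 130 and 85 reads in control and 25 and 34 reads in lactate replicates 1 and 2, with a log2 fold change of -1.96 (adjusted p = 0.0543, edgeR's quasi-likelihood test). Gata3, a factor gene of early trophectoderm, had 21 and 22 reads in control and 66 and 41 reads in lactate replicates 1 and 2, with a log2 fold change of 1.24 (adjusted p = 0.115, edgeR's quasi-likelihood test). Krt7, a keratin gene of trophoblast, had a log2 fold change of 0.46, Elf5 had between 2 and 4 reads per library, and Tpbpa, a marker of spongiotrophoblast, had none.

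Of 8 mesendoderm and definitive endoderm genes, 5 were tested and none was called, with 1 log2 fold change above 0, that of T, which passed the filter on low counts only through the lactate libraries, and 4 below with a median of -0.32. At an unadjusted p-value under 0.05, 0 genes were higher and 0 lower, against 11.7% and 11.4% of all genes. Eomes, Hhex, Cxcr4 and Gsc had log2 fold changes of -0.19, -0.25, -0.42 and -0.39, and Cer1 had no read in any library. Each of these 4 had 95% intervals that contained 0.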
